A study of Mus musculus with 12 samples.

Results

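The genes described here encode 5 chemoattractant receptors of myeloid cells: the formyl peptide receptors Fpr1 and Fpr2, the anaphylatoxin receptors C5ar1 and C3ar1, and Ptafr, the receptor for platelet-activating factor. They were read from the probe sets of a mouse exon array that name 1 of these genes and no other. This gave 28 probe sets (3 for Fpr1, 4 for Fpr2, 5 for C5ar1, 10 for C3ar1 and 6 for Ptafr) of the 318760 that name 1 gene and of 1256831 in all. After the removal of dim probe sets, 24 of the 28 remained: 1 for Fpr1, 3 for Fpr2, 4 for C5ar1, 10 for C3ar1 and 6 for Ptafr. Each gene value is a summary of those probe sets on a log2 scale, so a difference of 1 is a doubling of the signal. Levels are compared between arrays for the same gene and never between genes.

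All 5 are receptors with 7 membrane-spanning segments that signal through G proteins of the Gi class in neutrophils, monocytes and macrophages. Formyl peptides come from bacteria and mitochondria, C5a and C3a are released when complement is cleaved, and platelet-activating factor is a phospholipid made by activated cells. Binding raises calcium, activates PI3-kinase gamma, steers migration and primes the NADPH oxidase. In marrow the receptors appear as granulocytes and monocytes mature, and early progenitors carry little of them.

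The cells were primary marrow cultures from female C57B/6 mice 12 weeks old that had received 5-FU, which kills cycling cells and enriches for early progenitors. They were transduced with MSCV retroviral constructs and grown in medium with IL3, SCF and IL6. All of them overexpressed HOXA9, a homeobox protein that sustains myeloid progenitors, so no group lacks it. HOXA9+MEIS1 cells also received Meis1, a TALE homeobox cofactor of HOXA9, HOXA9+MDHD cells received Meis1 with its homeodomain deleted, and HOXA9+MIY cells received the empty vector. Each of the 3 conditions had 4 arrays, 2 at week 3 and 2 at week 4 of culture. The labels call the experiments independent but do not say whether week 3 and week 4 arrays share a culture, so p-values measure the spread between these arrays. Precision is limited by having 4 arrays a condition.

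The constructs were visible on the arrays: against HOXA9+MIY, Meis1 was 5.97-fold higher with the intact construct and 5.12-fold higher with the deleted one (limma, adjusted p = 1.76e-07 and 1.05e-06), while Hoxa9 was not called in any comparison of conditions. Any pair of arrays correlated at 0.967 to 0.985 over the probe sets. The second HOXA9+MDHD array at week 4 stood apart from the other 3 of its group for C5ar1 and C3ar1. This was not confined to the receptors. Cxcl12 read 7.01 on that array and 8.58 to 9.09 on the other 3, and Mmp8 11.70 against 9.02 to 9.29. Receptor calls and counts of list genes that change without that array are given both ways.

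The promoters of C3ar1 and C5ar1 are shown because these receptors, as set out below, differed between intact Meis1 and Meis1 without its DNA-binding homeodomain. Each runs from 250 bases before to 50 after the annotated start (RefSeq, GRCm38.p6), written 5′ to 3′ on the strand of the gene, with the MEIS core TGACAG or its reverse complement CTGTCA in capitals. C3ar1 lies at chr6:122856108-122856407 on the minus strand and C5ar1 at chr7:16259289-16259588 on the minus strand.
C3ar1: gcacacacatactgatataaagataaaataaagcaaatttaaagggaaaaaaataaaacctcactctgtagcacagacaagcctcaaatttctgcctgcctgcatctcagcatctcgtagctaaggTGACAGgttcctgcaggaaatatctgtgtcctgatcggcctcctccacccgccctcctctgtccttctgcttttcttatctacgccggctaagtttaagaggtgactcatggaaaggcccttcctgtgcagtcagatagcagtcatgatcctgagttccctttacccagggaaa
C5ar1: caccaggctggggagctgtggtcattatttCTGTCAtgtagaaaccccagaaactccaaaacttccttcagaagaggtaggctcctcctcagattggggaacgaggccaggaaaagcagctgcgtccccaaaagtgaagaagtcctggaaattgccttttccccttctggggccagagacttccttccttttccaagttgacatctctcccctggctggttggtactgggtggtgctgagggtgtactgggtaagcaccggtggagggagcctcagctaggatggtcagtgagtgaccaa
The first base of the match lies 124 bases before the start in C3ar1 and 220 bases before it in C5ar1. Of all 32851 promoters of this length, 19.2% hold the core on either strand, and the windows of Fpr1, Fpr2 and Ptafr do not. The PU.1 core GAGGAA, read on both strands, was present as TTCCTC in the Fpr2 and Ptafr windows, against 28.3% of all promoters. The C/EBP motif TTGCNNAA was in none of the 5 windows, against 10.8% of all promoters. No match overlaps another. These are matches of letters, and no binding was measured.

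With Meis1, all 5 receptors fell. In HOXA9+MEIS1 against HOXA9+MIY the falls were 7.18-fold for C3ar1, 3.34-fold for C5ar1, 2.90-fold for Fpr1, 2.03-fold for Fpr2 and 1.45-fold for Ptafr. Of all 20711 genes tested, 5.52% were called lower in that comparison. The median log2 difference of the 5 receptors was -1.53, against -0.01 over all genes. Because the cultures were measured in bulk, fewer cells of a type and less RNA per cell cannot be told apart. With the homeodomain deleted, Fpr1, Fpr2 and C5ar1 were still called lower than in HOXA9+MIY (3 of 5, against 1.03% of all genes), while C3ar1 and Ptafr were not called. Without the array that stood apart, 4 of 5 were called lower, C3ar1 among them, against 2.52% of all genes, and the genes called in either direction numbered 987, against 409 with it. Between HOXA9+MEIS1 and HOXA9+MDHD, C5ar1 and C3ar1 were called lower with intact Meis1 (2 of 5, against 2.11% of all genes, or 2.08% without that array). The comparisons share arrays pairwise, so their values are set side by side below and not correlated.

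**Figure D1:**
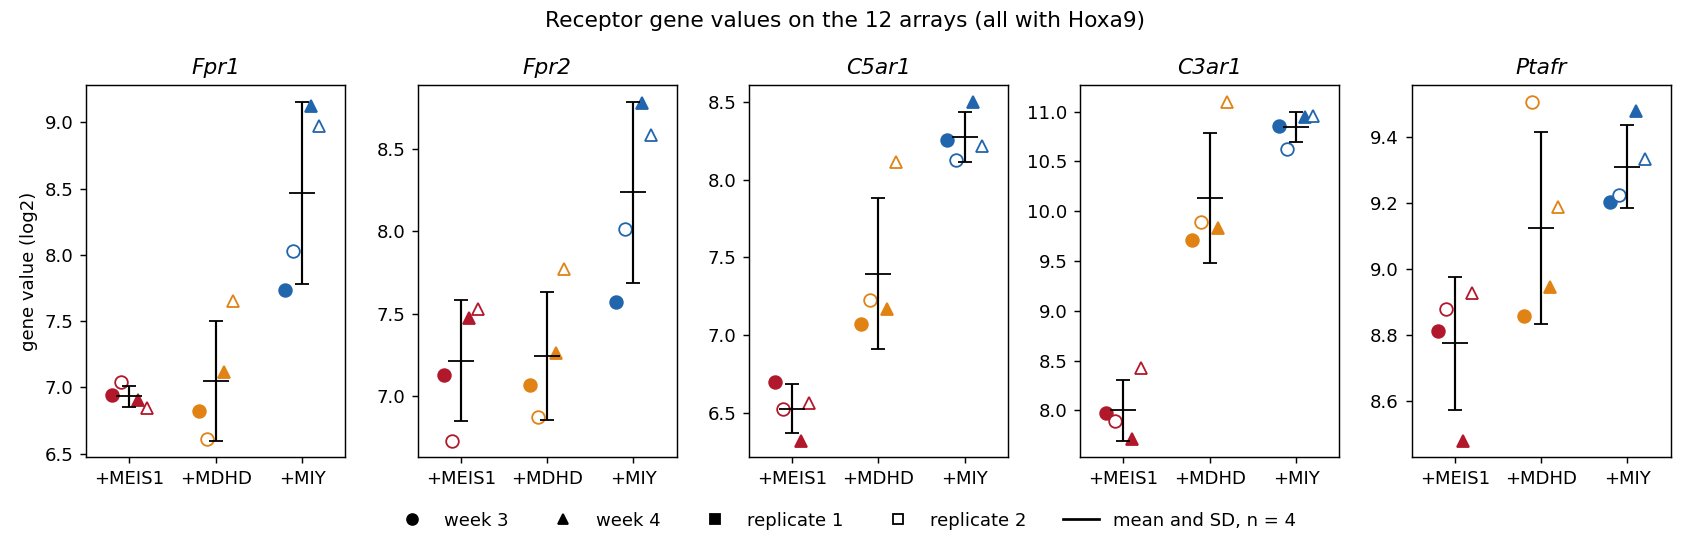
Log2 gene value (y axis) of each receptor on the 12 arrays, by condition (x axis), with circles for week 3, triangles for week 4, filled and open symbols for replicates 1 and 2, and bars for the mean and SD of 4 arrays. For C3ar1 the HOXA9+MEIS1 arrays lie between 7.71 and 8.43 and the HOXA9+MIY arrays between 10.63 and 10.95, with 1 HOXA9+MDHD array at 11.10.

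Fpr1 is the high-affinity receptor for formyl-methionyl peptides. At week 3 its log2 values were 6.94 and 7.04 in HOXA9+MEIS1 cells, 6.82 and 6.61 in HOXA9+MDHD, and 7.73 and 8.03 in HOXA9+MIY. At week 4 they were 6.91 and 6.84 in HOXA9+MEIS1 cells, 7.12 and 7.65 in HOXA9+MDHD, and 9.13 and 8.98 in HOXA9+MIY. Every array with either form of Meis1 lay below every HOXA9+MIY array, and the HOXA9+MEIS1 and HOXA9+MDHD arrays overlapped. Fpr1 averaged 6.93 ± 0.081 in HOXA9+MEIS1, 7.05 ± 0.450 in HOXA9+MDHD and 8.47 ± 0.689 in HOXA9+MIY (SD, n = 4 each). The difference from HOXA9+MIY was -1.53 ± 0.215 (SE) with Meis1 (limma, adjusted p = 0.000549) and -1.42 ± 0.215 with the homeodomain deleted, a 2.67-fold fall (adjusted p = 0.00829). HOXA9+MEIS1 minus HOXA9+MDHD was -0.12 (95% interval -0.59 to 0.35, adjusted p = 0.886), and was not called. The Fpr1 value rests on 1 probe set, since the others were too dim. Its means with either form of Meis1, 6.93 and 7.05, lay near the filter level of 6.26. Whether this hides a difference between the forms was not tested.

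Fpr2 binds formyl peptides with lower affinity and also annexin A1, serum amyloid A and the cathelicidin peptide. At week 3 its log2 values were 7.13 and 6.73 in HOXA9+MEIS1 cells, 7.07 and 6.87 in HOXA9+MDHD, and 7.57 and 8.01 in HOXA9+MIY. At week 4 they were 7.47 and 7.53 in HOXA9+MEIS1 cells, 7.26 and 7.77 in HOXA9+MDHD, and 8.77 and 8.58 in HOXA9+MIY. Within each week, every array with either form of Meis1 lay below both HOXA9+MIY arrays, while across weeks the HOXA9+MDHD and HOXA9+MIY arrays overlapped. The means were 7.21 ± 0.368 in HOXA9+MEIS1, 7.24 ± 0.386 in HOXA9+MDHD and 8.23 ± 0.549 in HOXA9+MIY (SD, n = 4 each). Fpr2 fell by 1.02 ± 0.139 (SE) on the log2 scale in HOXA9+MEIS1 (limma, adjusted p = 0.000450). In HOXA9+MDHD it fell by 0.99 ± 0.139, or 1.99-fold (adjusted p = 0.00611). HOXA9+MEIS1 minus HOXA9+MDHD was -0.03 (95% interval -0.33 to 0.28, adjusted p = 0.964).

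The probe sets of Fpr2 disagreed. Probe set 4949179, the brightest, read 8.25, 8.02, 8.92 and 8.55 in HOXA9+MEIS1 cells, 8.19, 7.92, 8.24 and 8.77 in HOXA9+MDHD, and 7.80, 8.03, 8.33 and 8.04 in HOXA9+MIY. It was not called in either comparison with HOXA9+MIY (0.39 with Meis1, adjusted p = 0.166, and 0.23 with the homeodomain deleted). The other 2 that passed the filter were called lower in both, by 1.12 and 1.58 with Meis1. The dimmer of them, 4662906, averaged 6.60 with Meis1 and 6.58 with the homeodomain deleted, near the filter level of 6.26. Probe set 5304840 was also called lower in both, but its means lay below the filter level in every condition, so no size is given for it. A stricter filter that kept only the brightest probe set turned the Fpr2 difference to 0.39, and the same filter left no value for Fpr1. Formyl peptide receptor genes resemble each other in sequence, and cross-hybridisation between them was not tested.

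C5ar1 is the receptor for C5a, the strongest chemoattractant of the complement cascade. Its log2 values were 6.70, 6.53, 6.33 and 6.57 in HOXA9+MEIS1, in the order week 3 then week 4. In HOXA9+MDHD they were 7.07, 7.23, 7.17 and 8.12, and in HOXA9+MIY 8.25, 8.12, 8.50 and 8.21. The conditions stood in the order HOXA9+MEIS1, HOXA9+MDHD, HOXA9+MIY and the arrays did not overlap, although the last HOXA9+MDHD array (8.115) came just under the lowest HOXA9+MIY array (8.123). The means were 6.53 ± 0.156 in HOXA9+MEIS1, 7.40 ± 0.484 in HOXA9+MDHD and 8.27 ± 0.160 in HOXA9+MIY (SD, n = 4 each). C5ar1 fell by 1.74 ± 0.185 (SE) on the log2 scale in HOXA9+MEIS1 against HOXA9+MIY (limma, adjusted p = 7.65e-05). In HOXA9+MDHD it fell by 0.88 ± 0.185, or 1.84-fold (adjusted p = 0.0353). That call was lost when any 1 of 9 of the 12 arrays was left out (-0.93 to -0.76), whereas without the last HOXA9+MDHD array the difference was -1.11 (adjusted p = 0.000216).

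C5ar1 was also lower with intact Meis1 than without its homeodomain, by 1.82-fold (-0.87 ± 0.185, limma, adjusted p = 0.0200). Leaving out the first HOXA9+MEIS1 array of week 4 (-0.76) or the second (-0.85) ended that call. The gene value understates what its 2 bright probe sets showed. Probe set 5406128 read 8.37, 8.35, 7.91 and 8.41 in HOXA9+MEIS1 cells, 9.54, 9.64, 9.53 and 11.03 in HOXA9+MDHD, and 11.02, 11.02, 11.35 and 11.30 in HOXA9+MIY. It was 7.54-fold lower in HOXA9+MEIS1 than in HOXA9+MIY, and probe set 5551939 was 8.12-fold lower (limma over all probe sets, adjusted p = 9.43e-07 and 8.10e-06). The HOXA9+MEIS1 mean of probe set 5551939, 6.56, lay near the filter level. The other 3 were dim, at means of 5.13 to 6.64, and none was called.

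C3ar1 is the receptor for C3a. Its log2 values were 7.98, 7.89, 7.71 and 8.43 in HOXA9+MEIS1 cells, 9.71, 9.89, 9.83 and 11.10 in HOXA9+MDHD, and 10.85, 10.63, 10.95 and 10.95 in HOXA9+MIY, week 3 first. The HOXA9+MEIS1 arrays were separated from all others by more than 1 log2 unit. In HOXA9+MDHD 3 arrays lay just under 10 and the fourth above every HOXA9+MIY array. The means were 8.00 ± 0.304 in HOXA9+MEIS1, 10.13 ± 0.649 in HOXA9+MDHD and 10.85 ± 0.154 in HOXA9+MIY (SD, n = 4 each). C3ar1 fell by 2.84 ± 0.234 (SE) in HOXA9+MEIS1 against HOXA9+MIY (limma, adjusted p = 1.17e-05). Against HOXA9+MDHD the difference was -2.13 ± 0.234, a 4.38-fold fall (adjusted p = 0.000270). HOXA9+MDHD minus HOXA9+MIY was -0.71 (95% interval -1.22 to -0.20, adjusted p = 0.175) and was not called. Without the last HOXA9+MDHD array it was -1.01 and called (adjusted p = 0.00146), and HOXA9+MEIS1 minus HOXA9+MDHD was then -1.83 (adjusted p = 2.77e-05).

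Ptafr is the receptor for platelet-activating factor. Its log2 values were 8.81, 8.88, 8.48 and 8.93 in HOXA9+MEIS1 cells, 8.86, 9.51, 8.95 and 9.19 in HOXA9+MDHD, and 9.20, 9.22, 9.48 and 9.33 in HOXA9+MIY, week 3 first. All HOXA9+MEIS1 arrays lay below all HOXA9+MIY arrays, and the HOXA9+MDHD arrays overlapped both. The means were 8.77 ± 0.202 in HOXA9+MEIS1, 9.12 ± 0.291 in HOXA9+MDHD and 9.31 ± 0.126 in HOXA9+MIY (SD, n = 4 each). The difference of HOXA9+MEIS1 from HOXA9+MIY was -0.54 ± 0.140 (SE, limma, adjusted p = 0.0275). That call was lost without the first (-0.47) or second (-0.52) HOXA9+MIY array of week 4, or without the first HOXA9+MEIS1 array of week 3 (-0.55) or week 4 (-0.43). HOXA9+MDHD minus HOXA9+MIY was -0.19 (95% interval -0.49 to 0.12, adjusted p = 0.642). HOXA9+MEIS1 minus HOXA9+MDHD was -0.35 (95% interval -0.65 to -0.05, adjusted p = 0.237).

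**Figure D2:**
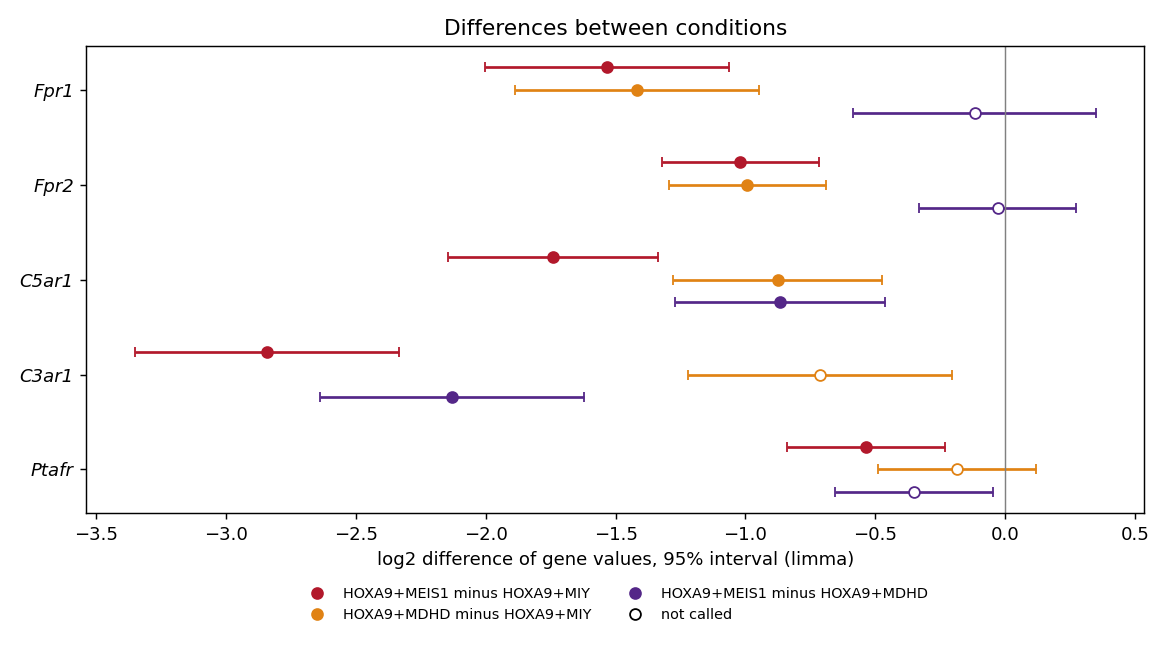
Log2 difference of gene values (x axis) with 95% intervals from limma for each receptor (y axis) and each pair of conditions, filled where called and open where not. Both Fpr genes show near-equal falls against HOXA9+MIY for either form of Meis1 (-1.53 and -1.42 for Fpr1), while for C3ar1 the values are -2.84 with Meis1 and -0.71 with the homeodomain deleted. The Fpr1 means with either form, and the C5ar1 mean in HOXA9+MEIS1, lie near the filter level of 6.26.

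HOXA9+MDHD therefore stood at different places between the other conditions for different receptors. Their distance from the HOXA9+MIY mean of the same week is given as a percentage of the distance of the HOXA9+MEIS1 mean. The 4 HOXA9+MDHD arrays lay at 36.7%, 30.2%, 38.9% and -5.13% for C3ar1. For C5ar1 they lay at 70.8%, 61.0%, 62.2% and 12.6%. For Fpr1 they lay at 119%, 142%, 88.9% and 64.5%, and for Fpr2 at 84.1%, 107%, 120% and 77.0%. The last array was the lowest for these 4 genes. Ptafr ranged from -79.4% to 96.9%, a spread wider than its small shift allows to be read. These positions are descriptions, and a difference between receptors was not tested. Fpr1 and part of the Fpr2 signal lay near the filter level with either form of Meis1, which limits how their positions can be read.

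Over single probe sets, 20 of 28 were called lower in HOXA9+MEIS1 than in HOXA9+MIY, against 3.5% of all 318760. They were 10 of 10 for C3ar1, 2 of 5 for C5ar1, 2 of 3 for Fpr1, 3 of 4 for Fpr2 and 3 of 6 for Ptafr. Of those 20, 18 passed the filter on dim probe sets. In HOXA9+MDHD against HOXA9+MIY 6 of 28 were called lower, against 0.534%: 3 for Fpr2, 2 for C5ar1 and 1 for Fpr1. In HOXA9+MEIS1 against HOXA9+MDHD 10 of 28 were called lower, against 1.53%: 8 for C3ar1 and 2 for C5ar1. The 8 bright probe sets of C3ar1 had log2 differences of -3.18 to -2.24 in HOXA9+MEIS1 against HOXA9+MIY, and one of its 2 dimmer ones had a difference of -0.68. The other was at least 1.74-fold lower, as its HOXA9+MEIS1 mean of 5.94 lay below the filter level. Probe sets of a gene share its transcripts and are not replicates.

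**Figure D3:**
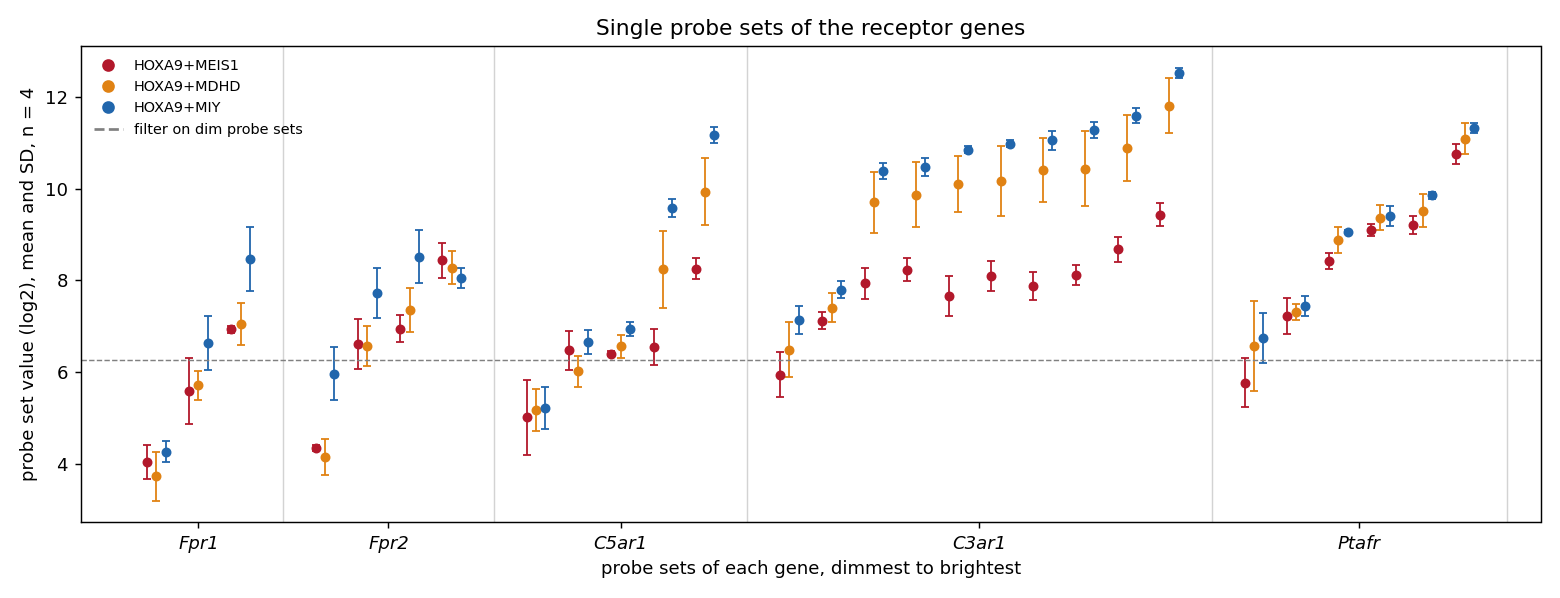
Log2 value of each of the 28 probe sets (y axis, mean and SD of 4 arrays) by gene (x axis, dimmest to brightest within a gene), with HOXA9+MEIS1, HOXA9+MDHD and HOXA9+MIY from left to right and the filter level of 6.26 dashed. The brightest Fpr2 probe set was not called lower in HOXA9+MEIS1 or HOXA9+MDHD than in HOXA9+MIY, and the 8 bright C3ar1 probe sets show HOXA9+MEIS1 well below the others.

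Between the weeks, 2 of 5 receptors were called, both higher at week 4, against 11.7% of all genes called higher and 39.8% called in either direction. Fpr1 was 0.57 ± 0.176 (SE) higher at week 4 than at week 3 (log2, limma, adjusted p = 0.0199), a call that was lost without the first (0.48) or second (0.52) HOXA9+MIY array of week 4, and with no filter on dim probe sets (0.39, adjusted p = 0.0582). Fpr2 was 0.67 ± 0.114 higher (adjusted p = 0.000437), and 5 of the 28 probe sets, 2 for Fpr1 and 3 for Fpr2, were called higher at week 4 (7.46% of all probe sets were called higher and 30.6% in either direction). C5ar1 (0.16), C3ar1 (0.34) and Ptafr (-0.02) were not called, while cyclic loess normalization brought C3ar1 to 0.55 (adjusted p = 0.0448). Fpr1 averaged 6.88 at week 4 and 6.99 at week 3 in HOXA9+MEIS1, and 9.05 at week 4 and 7.88 at week 3 in HOXA9+MIY. Its difference of HOXA9+MEIS1 from HOXA9+MIY was thus 1.28 ± 0.234 log2 units further down at week 4 (interaction of -1.28, unadjusted p = 0.000272, adjusted p = 0.263, limma), which was not called. For the 3 interactions 0% of all genes were called with limma. Of 20711 genes, 1358, 1011 and 1557 had an unadjusted p under 0.05 for HOXA9+MEIS1 minus HOXA9+MIY, HOXA9+MDHD minus HOXA9+MIY and HOXA9+MEIS1 minus HOXA9+MDHD. A share of 0.05 is expected there with no interaction in any gene.

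Among 13 related chemoattractant receptors, 9 were measured, and in HOXA9+MEIS1 against HOXA9+MIY 3 were called lower and 0 higher. These were Gpr77 (C5ar2, the other C5a receptor, -0.80, limma, adjusted p = 0.0372), Cmklr1 (the chemerin receptor, -0.63, adjusted p = 0.0102) and Cysltr1 (a leukotriene receptor, -0.66, adjusted p = 0.00386). In HOXA9+MDHD against HOXA9+MIY 0 of the 9 were called, and 1, lower, without the array that stood apart. Of all genes, 5.52% were called lower in the first of these comparisons and 1.03% in the second, or 2.52% without that array. Fpr-rs3, a close relative of the Fpr genes, differed by -0.04 in HOXA9+MEIS1 against HOXA9+MIY (adjusted p = 0.907). The list's median log2 difference was -0.18, against -0.01 over all genes.

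Of 12 ligands or ligand precursors, 10 were measured, and 6 were called lower and 0 higher in HOXA9+MEIS1 against HOXA9+MIY, with a median of -0.60. Of all genes, 5.52% were called lower there. Saa1, a serum amyloid A that binds Fpr2, was at least 22.02-fold lower, as its HOXA9+MEIS1 mean lay below the filter level (limma, adjusted p = 0.000169). Saa3 was 10.9-fold lower (adjusted p = 0.00153). Anxa1, annexin A1, was 2.58-fold lower (adjusted p = 1.29e-06). Camp, the cathelicidin and also on the late neutrophil list, fell by 0.55 on the log2 scale (adjusted p = 0.000634), and C3, the source of C3a, by 0.66 (adjusted p = 0.0200). In HOXA9+MDHD against HOXA9+MIY only Camp was called, at -0.46 (adjusted p = 0.0134), 1 of 10, against 1.03% of all genes. Without the array that stood apart 3 of 10 were called lower, against 2.52% of all genes. In HOXA9+MEIS1 against HOXA9+MDHD 4 were called lower (2.11% of all genes), among them Anxa1 (-1.21, adjusted p = 8.45e-06) and Saa3 (-2.88, adjusted p = 0.0114).

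Genes that act after the receptors were less uniform. All 4 measured NADPH oxidase genes were called lower in HOXA9+MEIS1 than in HOXA9+MIY. Cybb, the catalytic subunit, fell 7.33-fold (-2.87 ± 0.173 SE, limma, adjusted p = 1.29e-06), and the other 3 by 0.25 to 0.36 on the log2 scale. In HOXA9+MDHD against HOXA9+MIY 0 of 4 were called, with Cybb at -0.71 (adjusted p = 0.0641). Without the array that stood apart 1 of 4, Ncf4, was called lower (-0.30, adjusted p = 0.0265), and Cybb was at -0.73 (adjusted p = 0.0563). With Meis1, 2 of 19 G protein signalling genes were called higher and 2 lower. Of all 20711 genes, 1088 were called higher and 1143 lower in HOXA9+MEIS1 against HOXA9+MIY, and the list counts below stand beside that share too. The lower were Pik3r5 (-1.10, adjusted p = 0.000335) and Pik3r6 (-0.53, adjusted p = 0.00207), regulatory subunits of PI3-kinase gamma. Its catalytic subunit Pik3cg was not called (means of 10.95 in HOXA9+MEIS1 and 11.11 in HOXA9+MIY). The higher were Gna13 (11.51 and 11.29) and Gng2 (10.14 and 9.89). Of 11 desensitisation genes 4 were called lower and 1 higher, with the receptor kinase Grk5 at -0.89 (adjusted p = 0.000543).

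Of 8 genes that make or break down platelet-activating factor, 2 were called higher (1 without the HOXA9+MDHD array that stood apart) and 2 lower in HOXA9+MEIS1 against HOXA9+MIY. Pla2g4a, the phospholipase that frees its precursor, was higher by 0.83 (limma, adjusted p = 4.65e-06) and also in HOXA9+MDHD against HOXA9+MIY (0.52, adjusted p = 0.00313). Lpcat2, which acetylates the precursor, was lower by a difference of -0.75 (adjusted p = 0.00974). Of 11 complement regulators and other complement receptors, 3 were called lower (4 without the array that stood apart) and 0 higher with Meis1. Among the lower was Itgam, a chain of complement receptor CR3 (-1.06, adjusted p = 0.00257).

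Most markers of mature myeloid cells were also lower in HOXA9+MEIS1 than in HOXA9+MIY. All 13 measured late neutrophil markers were called lower in HOXA9+MEIS1 than in HOXA9+MIY. So were 9 of 12 monocyte and macrophage markers (8 without the array that stood apart), with 1 higher. In HOXA9+MDHD against HOXA9+MIY the counts lower were 6 of 13 and 3 of 12, and without the array that stood apart 11 of 13 and 7 of 12. In HOXA9+MEIS1 against HOXA9+MDHD they were 7 of 13 and 6 of 12 (6 of 13 and 6 of 12 without that array). The shares of all genes called lower were 5.52% in HOXA9+MEIS1 against HOXA9+MIY and 1.03% in HOXA9+MDHD against HOXA9+MIY (2.52% without that array). In HOXA9+MEIS1 against HOXA9+MDHD the share was 2.11% (2.08% without that array), and Fpr1 and Fpr2 were not called, at -0.12 and -0.03. The mean log2 value of the neutrophil list ranged from 7.63 to 8.11 in HOXA9+MEIS1, from 8.33 to 10.06 in HOXA9+MDHD and from 10.07 to 10.73 in HOXA9+MIY. The monocyte list ranged from 8.81 to 9.01 in HOXA9+MEIS1, from 9.60 to 10.15 in HOXA9+MDHD and from 10.13 to 10.25 in HOXA9+MIY. The last HOXA9+MDHD array, highest of its group for C5ar1 and C3ar1, was also highest for both lists. Progenitor markers without Meis1 itself, 8 genes, ranged from 8.97 to 9.39 in HOXA9+MEIS1, from 9.05 to 9.39 in HOXA9+MDHD and from 8.80 to 8.98 in HOXA9+MIY. They did not move together: 4 of the 8 were called higher and 2 lower in HOXA9+MEIS1 against HOXA9+MIY. The largest rise was in Flt3, with means of 9.95 in HOXA9+MEIS1 and 6.79 in HOXA9+MIY. Cd34 was 2.36-fold higher and Ly6a 8.02-fold lower (limma, adjusted p = 0.000630 and 3.82e-07). In HOXA9+MDHD against HOXA9+MIY 4 of the 8 were called higher and 1 lower (5 and 2 without the array that stood apart). Of all 20711 genes, 195 were called higher and 214 lower there with all 12 arrays.

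Some of the other marker lists are given beside these. The primary granule list of 5 genes ranged from 11.34 to 11.85 in HOXA9+MEIS1, from 11.69 to 12.14 in HOXA9+MDHD and from 12.39 to 12.65 in HOXA9+MIY. Of its genes 3 were called lower in HOXA9+MEIS1 against HOXA9+MIY (4 without the array that stood apart). In HOXA9+MDHD against HOXA9+MIY 2 were called lower (3 without that array). The eosinophil list of 5 genes ranged from 6.87 to 7.12 in HOXA9+MEIS1, from 6.74 to 6.88 in HOXA9+MDHD and from 7.09 to 8.25 in HOXA9+MIY. Of these Prg2, an eosinophil granule protein, was called lower in both comparisons with HOXA9+MIY, 4.07-fold with Meis1 and 5.69-fold with the homeodomain deleted (limma, adjusted p = 0.00366 and 0.00732). The erythroid list of 5 genes ranged from 8.74 to 8.86 in HOXA9+MEIS1, from 8.58 to 8.90 in HOXA9+MDHD and from 8.27 to 8.55 in HOXA9+MIY. For the mast cell and basophil list of 10 genes the ranges were 8.45 to 8.64, 8.25 to 9.40 and 8.40 to 8.88. The B lymphoid list of 6 genes lay between 6.84 and 7.15 on all arrays. Dendritic, megakaryocyte, T and NK, and stroma lists are not described. Cxcr2 and Elane, of the neutrophil lists, had no gene value. The part of cell composition in the receptor differences was not tested.

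**Figure D4:**
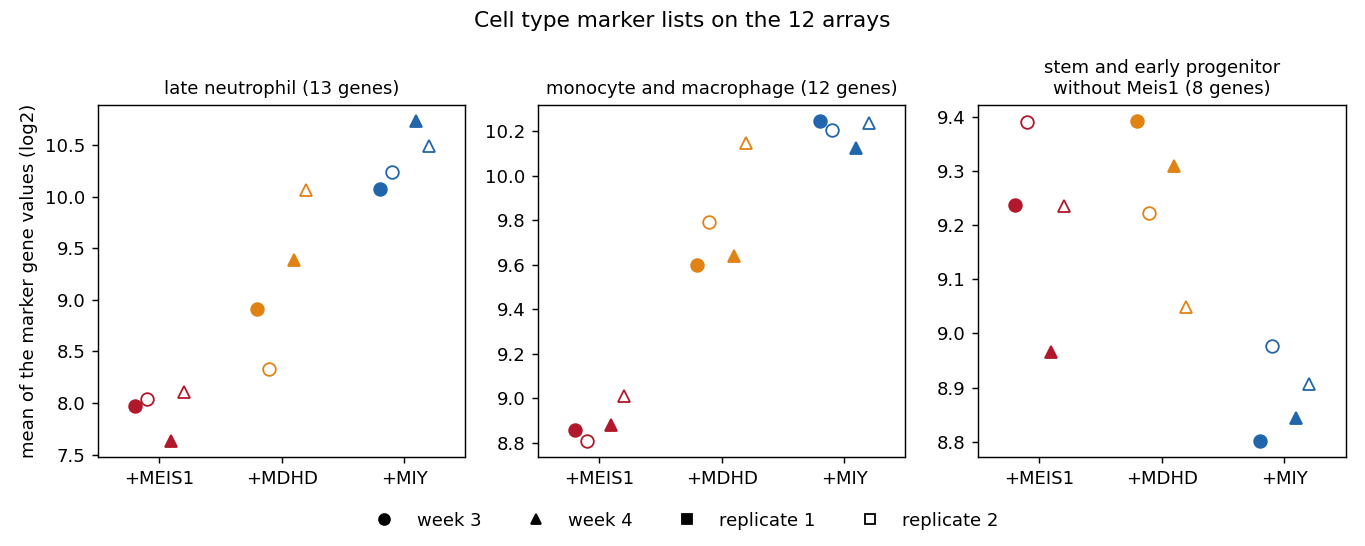
Mean log2 value of 3 marker lists (y axis) on each array by condition (x axis), with circles for week 3, triangles for week 4, and filled and open symbols for replicates 1 and 2. For the late neutrophil list HOXA9+MEIS1 lies at 7.63 to 8.11 and HOXA9+MIY at 10.07 to 10.73, with HOXA9+MDHD spread between them.

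Across the 12 arrays the receptors fell into patterns, given here as Pearson correlations without a test, since the arrays share conditions and weeks. Fpr1 and Fpr2 correlated at 0.931, and C5ar1 and C3ar1 at 0.953. Between those pairs the correlations ran from 0.629 (Fpr2 with C3ar1) to 0.828 (Fpr1 with C5ar1). Ptafr correlated with the others at 0.484 to 0.797. Of 2405 candidate genes that span at least 1 log2 unit, the most like Fpr1 were Il1f9 (0.961), Hopx (0.955) and Camp (0.953), and for Fpr2 Camp (0.959) and Hpse (0.937). For C5ar1 they were Tifab (0.979) and Tgfbi (0.976), for C3ar1 Il13ra1 (0.990), Tifab (0.990) and Lyz2 (0.989), and for Ptafr Il1b (0.945), Alpk1 (0.939) and Tlr2 (0.937).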

How the data were processed

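RNA was measured on 12 Affymetrix mouse exon arrays, 1 per sample. The deposited log2 values per exon-level probe set were made by the authors with RMA in Affymetrix Expression Console, per the submitters' processing notes. Versions and genome build are not given in the sources used here.

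Probe sets with 1 gene symbol were kept if their mean over the 12 arrays exceeded 6.26, the 50th percentile of all. A median polish (at most 50 iterations) gave 20711 gene values, 2245 of them from 1 probe set. limma 3.58.1 in R 4.3.3 fitted condition and week (lmFit, eBayes with trend, two-sided), with Benjamini-Hochberg adjustment over all genes and calls at an adjusted p under 0.05. Single probe sets were fitted over all 318760 that name 1 gene. Interactions of condition and week had their own fit. Where a group mean lay below the filter level, the fold is a bound against that level. The fit was tested on simulated data. Python 3.11.15, pandas 2.3.3 and matplotlib 3.10.9 were used otherwise.

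Groups came from the labels. The receptors, lists and tests were chosen with earlier results of these data known. Besides the receptors, up to 4 called genes per list and the genes most correlated with each receptor were eligible for naming. This rule was not always followed, since C3 and the uncalled Fpr-rs3 are named outside it. Alternatives covered the filter, summary, normalization, samples fitted, weeks, replicate block and single arrays.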

Additional observations from a re-analysis of the deposited data

Results flagged for a closer look

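In the HOXA9+MDHD group, the second array of week 4 stood far from the other 3 for 2 receptors. C5ar1 was at 8.12 there and C3ar1 at 11.10, with a gap to the nearest array of 0.852 and 0.868 of the group's range, above Dixon's critical value of 0.829 for 4 arrays. Of 15 groups compared in this way 2 passed, and chance passes about 1 in 20 for a single group of like arrays. Both passes came from the same array, the 2 genes correlated at 0.953, and each group pools week 3 and week 4. The count of passes therefore cannot be set against that rate.

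Fpr1 differed in direction between weeks. HOXA9+MEIS1 minus HOXA9+MDHD was 0.273 at week 3, and the change of that difference by week 4 was -0.78 (limma interaction, adjusted p = 0.613), a value that also gives its week effect in HOXA9+MEIS1 minus that in HOXA9+MDHD. The week effect of Fpr1 in HOXA9+MEIS1 minus that in HOXA9+MIY was -1.28 (adjusted p = 0.263). Neither passed the adjusted threshold.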

How the results depend on the processing

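Calls of C3ar1 and C5ar1 in HOXA9+MEIS1 minus HOXA9+MIY (-2.95 to -2.50 and -2.97 to -0.89), and of C3ar1 in HOXA9+MEIS1 minus HOXA9+MDHD (-2.39 to -1.82), kept direction and side of the threshold under every alternative run. Background correction and slide blocks, which need scanner files, were not run. Fpr1 had no value under the strict filter (75th percentile). Leaving out an array kept the gene values computed from 12. The cause of the changes below was not tested, and values are log2 unless they count genes.

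Genes called in HOXA9+MEIS1 minus HOXA9+MIY (2231) were 902 without a week term, 917 at week 3 and 809 at week 4. In HOXA9+MDHD minus HOXA9+MIY (409) they were 35, 236 and 11, and 147 with those groups alone. In HOXA9+MEIS1 minus HOXA9+MDHD (910) they were 297, 373 and 210, and 520 with those groups alone. For the week interaction of that pair they were 2 with no filter, 1 with the strict filter and 3 with the mean of probe sets.

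Under the strict filter Fpr2 turned to 0.387, 0.229 and 0.158 in HOXA9+MEIS1 minus HOXA9+MIY, HOXA9+MDHD minus HOXA9+MIY and HOXA9+MEIS1 minus HOXA9+MDHD. Without a week term these lost their calls: Fpr2 (-1.02) and Ptafr (-0.536) in HOXA9+MEIS1 minus HOXA9+MIY, Fpr1 (-1.42), Fpr2 (-0.992) and C5ar1 (-0.876) in HOXA9+MDHD minus HOXA9+MIY, and C5ar1 (-0.866) in HOXA9+MEIS1 minus HOXA9+MDHD. With the groups compared alone, C5ar1 lost both calls at the same values. In HOXA9+MEIS1 minus HOXA9+MIY, Fpr2 at week 3 (-0.861) and Ptafr at week 3 (-0.369), at week 4 (-0.702) and with the mean of probe sets (-0.559) were not called. In HOXA9+MDHD minus HOXA9+MIY, Fpr2 at week 3 (-0.822) and week 4 (-1.16), and C5ar1 with no filter (-0.389), quantile normalization (-0.848) and at week 4 (-0.715), were not called, while C3ar1 was called at week 3 (-0.939). In HOXA9+MEIS1 minus HOXA9+MDHD, C5ar1 was not called with no filter (-0.504), at week 3 (-0.536) or at week 4 (-1.20), and Fpr1 turned to 0.273 at week 3.

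Between weeks, Fpr1 lost its call with no filter (0.388) and C3ar1 gained one with cyclic loess (0.548). The uncalled week difference of Ptafr turned to 0.141 with quantile normalization, 0.0284 with median centring and 0.171 with cyclic loess. Uncalled interactions turned for Fpr2 (0.331) and C3ar1 (0.0199) in HOXA9+MEIS1 minus HOXA9+MIY and Fpr2 (0.184) in HOXA9+MDHD minus HOXA9+MIY under the strict filter. They turned in HOXA9+MEIS1 minus HOXA9+MDHD for Fpr2 with no filter (-0.153) and the mean (-0.109), and for Ptafr with the strict filter (0.0229), quantile normalization (0.0442), median centring (0.0038) and loess (0.0735).

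Counts of list genes without the second week 4 HOXA9+MDHD array were chosen after seeing the data and stand beside the results. Leaving out single arrays moved called genes between 139 and 987 in HOXA9+MDHD minus HOXA9+MIY, the most without its second week 4 HOXA9+MDHD array, and between 602 and 1007 in HOXA9+MEIS1 minus HOXA9+MDHD. Interaction counts ranged from 0 to 30 and from 0 to 36 in the same pairs. Ptafr ranged from -0.597 to -0.429 in HOXA9+MEIS1 minus HOXA9+MIY. In HOXA9+MDHD minus HOXA9+MIY, C5ar1 ranged from -1.11 to -0.760 and C3ar1 from -1.01 to -0.536. In HOXA9+MEIS1 minus HOXA9+MDHD, Fpr1 ranged from -0.264 to 0.0238, Fpr2 from -0.146 to 0.0452 and C5ar1 from -0.982 to -0.627. Between weeks, Fpr1 ranged from 0.463 to 0.673 and Ptafr from -0.0913 to 0.0714. Interactions ranged from -0.431 to 0.283 for C3ar1 in HOXA9+MEIS1 minus HOXA9+MIY. In HOXA9+MDHD minus HOXA9+MIY they ranged from -0.181 to 1.09 for C3ar1, from -0.151 to 0.796 for C5ar1 and from -0.633 to 0.0181 for Ptafr. In HOXA9+MEIS1 minus HOXA9+MDHD they ranged from -1.16 to 0.107 for C3ar1, from -0.231 to 0.279 for Fpr2 and from -0.351 to 0.300 for Ptafr.

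Arrays share replicate numbers, but the labels do not say that the numbers pair arrays, so they were not taken as pairs. Residuals after condition and week were correlated between conditions within a week. Same-number pairs lay at -0.316 to -0.0148 and other pairs at -0.271 to 0.0481. These ranges overlap, and week 3 arrays were not set against week 4 arrays, so the values do not settle whether numbers pair. With the number as a replicate block the called genes were 2026, 332, 765 and 7998 in HOXA9+MEIS1 minus HOXA9+MIY, HOXA9+MDHD minus HOXA9+MIY, HOXA9+MEIS1 minus HOXA9+MDHD and week 4 minus week 3, and no receptor call changed.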
